A study of Mus musculus with 5 samples.

Results

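The regions described here are the CpG-richest stretches of the mouse autosomes, seen in leukemic blasts with and without *Tet2*. The 19 autosomes were cut into non-overlapping windows of 100 kb, and a CpG dyad was counted as 1 CpG site with both its strands. Of 24639 windows, 24022 held at least 100 dyads, and the 10% with the highest dyad number, 2402 windows, were taken. They held 1332 to 4072 dyads (median 1490) and together 3707516 dyads, 18.2% of all autosomal dyads. They were compared with the middle 10%, also 2402 windows, which held 725 to 833 dyads. Dyad number comes from the reference genome (GRCm38, mm10), so the choice used no methylation value. Of 16 windows with exactly 1332 dyads, 14 were taken in genome order and 2 were not. The last window taken, chr15:75800001-75900000, and the first left out, chr19:24200001-24300000, both held 1332 dyads, and their levels were 5.02 and 7.16 points higher in *Tet2*-/- than in *Tet2*+/+ leukemias.

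Methylation was measured by whole-genome bisulfite sequencing (WGBS), in which unmethylated cytosine is read as T and methylated cytosine as C. The study asked how loss of *Tet2* acts in *Cebpa*-mutant acute myeloid leukemia (AML). All 5 libraries came from C57BL/6 mice and carried *Cebpa*-/p30, that is 1 deleted *Cebpa* allele and 1 allele that encodes only p30, the short form of the transcription factor CEBPA. The 2 *Tet2*+/+ libraries (replicates 23 and 24) had intact *Tet2*, and the 3 *Tet2*-/- libraries (replicates 5, 7 and 8) lacked it. The floxed *Cebpa* and *Tet2* alleles had been deleted with Mx1-Cre after poly I:C injection, and each library was made from the bone marrow of 1 lethally irradiated recipient mouse, from sorted donor blasts (CD45.2+, negative for CD3, B220 and Ter119). Recipients were adult females at transplantation, and per the study's methods bone marrow was collected when mice were moribund. Their age at sampling was not given in the sources used here. The study reported a shorter median survival with *Tet2* loss. Age and duration of disease may thus differ between the groups, and their part cannot be told apart from that of genotype. In the first 1000 bases of the last *Tet2* exon (chr3:133467191-133468190) the *Tet2*+/+ libraries held 44 and 64 calls, and the 3 *Tet2*-/- libraries held 0 calls, which allows up to 3.72% to 6.64% of the depth around it. Mean depth was 2.999 to 5.27 calls per autosomal dyad, and the autosomal level ranged from 62.3% to 74.8%, lowest in replicate 24 and highest in replicate 7. Promoters of 6 myeloid genes, such as *Mpo* and *Prtn3*, which make granule enzymes, had a mean level of 17.2% to 20.2%. Those of 5 B cell genes lay at 49.7% to 64.96% and those of 5 T cell genes at 65.5% to 79.5%. Single promoters varied within a list. Of the myeloid genes, *Prtn3* lay at 0.487% to 2.08% and *Mpo* at 7.46% to 16.2%, but *Elane* at 33.3% to 53.4% and *Itgam* at 31.6% to 41.03%. The latter 2 overlapped the B cell gene *Pax5*, at 30.3% to 48.2%. Promoters of 4 erythroid genes had a mean level of 24.01% and 21.5% in *Tet2*+/+ and of 39.2% to 41.7% in *Tet2*-/- libraries, and the part of these cell types in the levels given here was not tested. A level pools all cells of a library, so a smaller share of methylated cells and a lower level in every cell cannot be told apart.

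DNA methyltransferases place methyl groups on the cytosines of CpG dyads, and TET dioxygenases such as TET2 oxidise them, a step toward their removal. Bisulfite reads methylated and hydroxymethylated cytosine alike. Most CpG sites of a mammalian genome lie apart from each other and are methylated, whereas CpG islands, dense clusters that often overlie promoters, are mostly free of methylation. At the scale of 100 kb, CpG number follows gene number and GC content. The windows with most CpG sites were such regions. Their median GC content was 48.4% (middle windows 41.4%), and their median ratio of observed to expected CpG was 0.262 (0.182). They held a median of 2 5′ ends of protein-coding genes (0 in the middle windows), and 30.1% of all such 5′ ends lay in them. Protein-coding genes and their promoters covered a median of 71.5% of their bases (29.3%). Repeats, read from the soft-masked bases of the reference, covered a median of 25.6% (31.02%). Their CpG sites were not all packed into islands. In 1 kb tiles, 11.8% of their dyads lay in tiles with at least 50 dyads (dense tiles), 29.2% in tiles with 20 to 49 and 58.9% in tiles with under 20 (sparse tiles). Even so, they held 40.3% of the dense tiles of all windows.

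Reference stretches of 200 bases from 6 windows show what tiles with more CpG sites and sparse tiles look like. Each CpG is in capitals, and all stretches lie outside annotated exons (GRCm38, plus strand). The first 3 come from the window with most dyads, the window ranked 2 and the *Hoxa* cluster, each from the densest tile that holds 200 bases outside exons and at least 20 calls in every library. The next 2 come from the best covered sparse tile of the windows ranked 1 and 3 by the difference between groups, and the last from the best covered sparse tile of a window of median dyad number.
window 1 by dyads, chr8:123564411-123564610: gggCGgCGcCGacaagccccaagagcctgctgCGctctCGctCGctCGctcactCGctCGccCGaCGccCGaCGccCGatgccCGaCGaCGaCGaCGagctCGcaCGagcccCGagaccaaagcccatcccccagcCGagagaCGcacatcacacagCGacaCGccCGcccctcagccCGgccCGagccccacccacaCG
window 2 by dyads, chr6:114514771-114514970: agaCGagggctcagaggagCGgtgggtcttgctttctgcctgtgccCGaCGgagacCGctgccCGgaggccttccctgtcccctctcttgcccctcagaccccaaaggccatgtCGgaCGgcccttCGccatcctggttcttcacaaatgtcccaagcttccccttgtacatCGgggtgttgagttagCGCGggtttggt
Hoxa window, chr6:52204591-52204790: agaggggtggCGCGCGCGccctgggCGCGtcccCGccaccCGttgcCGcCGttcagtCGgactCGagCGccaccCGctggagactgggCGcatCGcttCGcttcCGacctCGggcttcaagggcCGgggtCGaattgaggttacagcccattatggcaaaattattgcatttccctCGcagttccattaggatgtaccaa
Col4a1 window, chr8:11357001-11357200: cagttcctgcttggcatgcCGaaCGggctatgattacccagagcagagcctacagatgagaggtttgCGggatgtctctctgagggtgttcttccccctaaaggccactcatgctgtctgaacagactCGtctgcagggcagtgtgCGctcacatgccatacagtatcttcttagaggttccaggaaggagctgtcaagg
Ttc28 window, chr5:111253741-111253940: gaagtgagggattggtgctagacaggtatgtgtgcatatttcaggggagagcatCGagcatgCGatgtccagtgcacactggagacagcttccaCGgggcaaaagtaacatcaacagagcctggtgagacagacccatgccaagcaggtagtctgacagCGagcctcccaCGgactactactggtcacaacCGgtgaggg
middle window, chr9:73450731-73450930: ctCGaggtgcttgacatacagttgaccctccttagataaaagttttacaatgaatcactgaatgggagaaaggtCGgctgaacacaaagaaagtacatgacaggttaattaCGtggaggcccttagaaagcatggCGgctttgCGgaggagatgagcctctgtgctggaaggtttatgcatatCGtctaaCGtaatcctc
The first 3 stretches held 30, 12 and 22 CpG sites and the sparse stretches 5, 6 and 7. In the window with most dyads the tile, chr8:123564001-123565000, held 75 dyads, and its level was 4% and 8% in *Tet2*+/+ and 6.67%, 13.9% and 47.6% in *Tet2*-/- replicates 5, 7 and 8, on only 21 to 45 calls. In the window ranked 2 the tile, chr6:114514001-114515000, held 41 dyads and was thus not a dense tile. Its level was 42.9% and 25.9% in *Tet2*+/+ and 62.6%, 33.7% and 40% in *Tet2*-/- replicates 5, 7 and 8, and the groups overlapped. The tile of the *Hoxa* window, chr6:52204001-52205000, held 84 dyads. Its level was 94.5% and 92.3% in *Tet2*+/+ and 93.6%, 37.8% and 93.3% in *Tet2*-/- replicates 5, 7 and 8, each on at least 89 calls. This tile was thus highly methylated in every library but replicate 7. The sparse tile of the *Col4a1* window, chr8:11357001-11358000, had a level of 52.2% and 34.5% in *Tet2*+/+ and of 77.9%, 91.2% and 85.3% in *Tet2*-/- libraries, on at least 90 calls. The sparse tile of the *Ttc28* window, chr5:111253001-111254000, had levels of 69.8% and 74.8% against 87.1%, 96.5% and 94.3%. In the middle window the sparse tile, chr9:73450001-73451000, had levels of 86.3% and 79.3% against 86.5%, 97.2% and 84.4%, and the groups overlapped.

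The CpG-richest windows were less methylated than the middle windows in every library. Over all their dyads the weighted level, the share of pooled calls that were methylated, was 62.6% and 58.2% in *Tet2*+/+ and 66.6%, 70.1% and 65.8% in *Tet2*-/- replicates 5, 7 and 8. In the middle windows it was 70.6% and 65.5% against 74.0%, 77.9% and 70.3%. The richest windows were lower by 7.03 ± 1.44 points (SD, n = 5), and in all 5 libraries, which gave an exact two-sided sign-flip p of 0.0625, the smallest that 5 libraries allow. *Tet2*-/- libraries had the higher level in the richest windows, 67.5% ± 2.26 (SD, n = 3) against 60.4% ± 3.12 (SD, n = 2), with no overlap. This difference of 7.13 points had an exact permutation p of 0.1, the smallest that 2 against 3 libraries allow, so that no level compared over these libraries can pass a threshold of 0.05. In the middle windows the groups overlapped, and the difference was 6.02 points (exact p = 0.3), or 3.51 points without *Tet2*+/+ replicate 24. There the level of *Tet2*-/- replicate 8 lay just under that of *Tet2*+/+ replicate 23.

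The difference between genotypes was 1.11 points larger in the richest than in the middle windows over all dyads, with an exact permutation p of 0.7. Without *Tet2*-/- replicate 8 it was 0.0675 points and without *Tet2*-/- replicate 7 it was 1.73 points. Richest and middle windows share no dyad but come from the same libraries. Depth was higher in the richest windows, 3.51 to 6.50 calls per dyad against 2.79 to 4.79, and the 95% Wilson interval of these levels, which covers counting error only, reached at most 0.0392 points to each side.

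In sparse tiles, the CpG-richest windows had levels within 3.02 points of those of the middle windows in every library, and the genotypes stood 8.71 points apart. In dyads of sparse tiles the level was 71.6% and 67.4% in *Tet2*+/+ and 76.6%, 82.3% and 75.8% in *Tet2*-/- libraries. The middle windows had levels of 72.7% and 67.7% against 76.5%, 81.4% and 72.8%. Richest minus middle was -1.08 and -0.24 points in *Tet2*+/+ replicates 23 and 24, and 0.19, 0.88 and 3.02 points in *Tet2*-/- replicates 5, 7 and 8. Both *Tet2*+/+ libraries were thus lower and all 3 *Tet2*-/- libraries higher in the richest windows, and the mean over the 5 libraries was 0.55 ± 1.55 points (SD, exact sign-flip p = 0.6875). The sign of this mean changed with the definition of a sparse tile and without replicate 8. In sparse tiles with no denser tile within 2 tiles on either side, the richest windows were higher in all 5 libraries. The mean there was 1.59 ± 1.41 points (SD, exact sign-flip p = 0.0625). Over all sparse tiles the richest windows had levels of 78.2% ± 3.51 (SD, n = 3) in *Tet2*-/- against 69.5% ± 2.94 (SD, n = 2). The genotypes thus differed there by 8.71 points, with no overlap (exact p = 0.1). In the middle windows they differed by 6.69 points (exact p = 0.2), or 4.19 points without *Tet2*+/+ replicate 24. There replicate 8, at 72.8%, lay just above *Tet2*+/+ replicate 23, at 72.7%. The larger difference in the richest windows, by 2.02 points, had an exact permutation p of 0.2, and it was 1.196 points without *Tet2*-/- replicate 8.

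**Figure D1:**
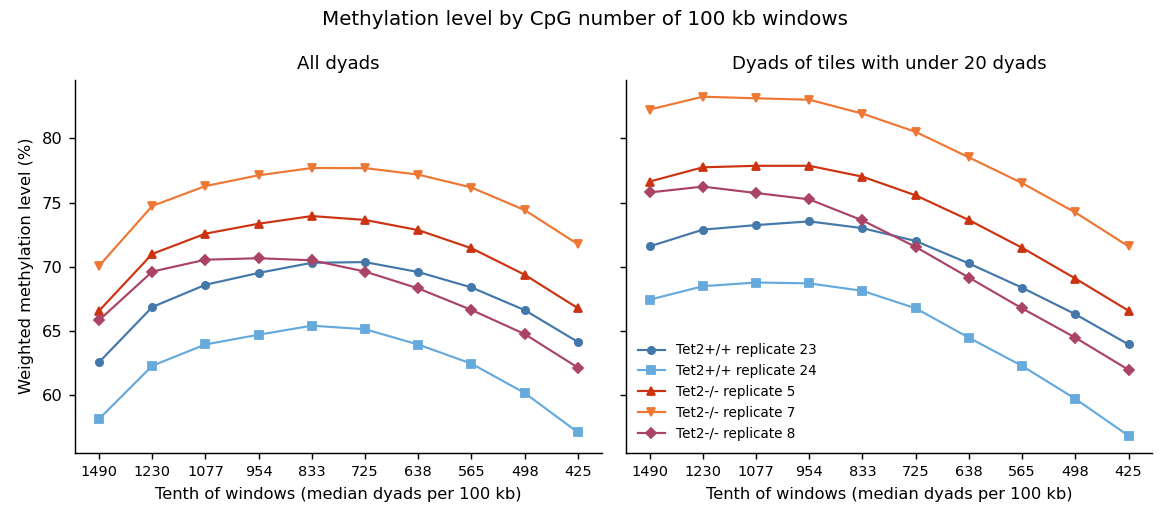
Weighted methylation level (%, vertical axis) of the 5 libraries in windows grouped by dyad number in steps of 10% of the windows, from the richest on the left to the poorest, over all dyads (left) and over dyads of sparse tiles (right). Each line is a library, and tick labels give the median dyads per window. Levels over all dyads are highest in the middle of the range, those in sparse tiles are lowest in the CpG-poorest windows, and in the 5 groups on the left all 3 *Tet2*-/- libraries lie above both *Tet2*+/+ libraries.

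Grouping all windows by dyad number in steps of 10% placed the richest windows in this order. Over all dyads the genotype difference was 7.13 points in the richest group and 7.21 and 6.86 points in the next groups, and it lay between 5.90 and 6.60 points in the other 7. In sparse tiles it was 8.71 points in the richest group, 8.39 and 7.90 in the next, and 6.26 to 6.48 points in the 5 groups with fewest dyads. In the 5 richest groups the 3 *Tet2*-/- libraries lay above both *Tet2*+/+ libraries, over all dyads and in sparse tiles, and in the other 5 groups they overlapped. Replicate 8 crossed from above to below *Tet2*+/+ replicate 23 toward the CpG-poor end, as the plot of levels by dyad number shows.

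Within the richest windows the level was lower where CpG sites were denser. In sparse tiles the *Tet2*+/+ mean was 69.5%, in tiles with 20 to 49 dyads 57.3% ± 3.55, and in dense tiles 9.08% ± 1.18 (SD, n = 2). The genotype difference was 8.13 points at 20 to 49 dyads and 2.18 points in dense tiles, where levels were 9.91% and 8.24% in *Tet2*+/+ and 11.4%, 10.8% and 11.6% in *Tet2*-/- libraries. Without *Tet2*+/+ replicate 24 the difference in dense tiles was 1.35 points. As a share of the *Tet2*+/+ mean of both libraries, the difference was 24.1% in dense tiles. It was 14.2% at 20 to 49 dyads and 12.5% in sparse tiles. When tiles were split into 9 classes of dyad number, the difference was largest at 20 to 29 dyads, 9.25 points, and smallest at 70 and more, 1.74 points. In each of the 9 classes the 3 *Tet2*-/- libraries lay above both *Tet2*+/+ libraries in the richest windows (exact p = 0.1 each). In each class the difference was also larger in the richest than in the middle windows, and the gap was widest at 30 to 39 dyads, 7.35 against 2.68 points. The groups of the middle windows overlapped in 7 of the 9 classes, all but those of 10 to 14 and 15 to 19 dyads (exact p = 0.2 to 0.6 over the 9 classes). The test of the difference between richest and middle windows did not pass. In tiles with 20 to 49 dyads the richest minus the middle difference was 3.45 points (exact p = 0.2) and in dense tiles 0.99 points (exact p = 0.4).

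**Figure D2:**
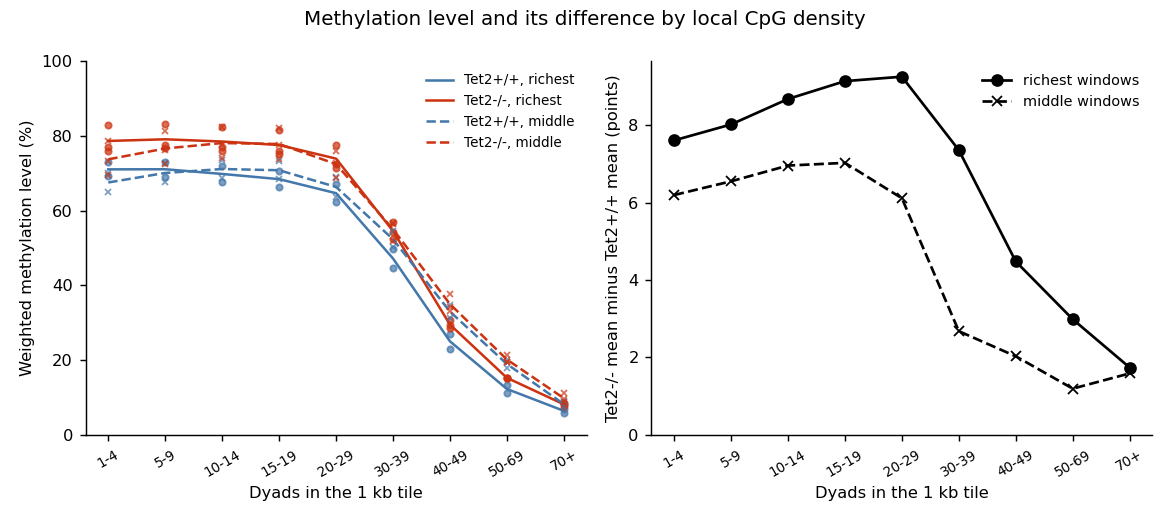
Weighted methylation level (%, left) and difference of group means in points (right) by number of dyads in the 1 kb tile (horizontal axis), for the CpG-richest windows (solid lines, circles) and the middle windows (dashed lines, crosses). Lines on the left are group means (2 *Tet2*+/+ and 3 *Tet2*-/- libraries) and small symbols single libraries. Levels are lower in tiles with 30 and more dyads in both kinds of window, and the solid line on the right lies above the dashed line in all 9 classes.

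In points, the genotype difference in the richest windows was smallest in promoters and largest outside genes. As a share of the *Tet2*+/+ mean of both libraries it was largest in promoters, 18.9%. It was then 15.5% outside protein-coding genes, 11.8% in introns and 11.1% in other exons. Promoters, within 1000 bp of a protein-coding 5′ end, had the lowest level, 15.3% and 13.3% in *Tet2*+/+ and 16.7%, 17.0% and 17.4% in *Tet2*-/- libraries, a difference of 2.71 points. Other exons differed by 7.51 points (75.1% ± 2.11 against 67.6% ± 3.38), introns by 8.10 points (77.0% ± 3.10 against 68.9% ± 2.996) and dyads outside protein-coding genes by 9.49 points (70.8% ± 3.31 against 61.3% ± 3.16; SD, n = 3 and 2). Groups did not overlap in any of these 4 classes (exact p = 0.1), and in the middle windows, with differences of 1.89, 5.45, 6.17 and 6.87 points (exact p = 0.2 to 0.4), they overlapped in promoters and outside genes. Without *Tet2*+/+ replicate 24 the promoters of the richest windows differed by 1.71 points, and the 4 classes of the middle windows by 0.498, 3.17, 3.79 and 4.29 points. Dyads outside protein-coding genes in the richest windows then differed by 7.26 points. Beside the levels of *Tet2*+/+ replicate 23, 15.3% in promoters and 63.6% outside genes, promoters then no longer had the largest share. Within sparse tiles of the richest windows the difference was 9.37 points in promoters, 8.13 points in introns and 9.78 points outside protein-coding genes. In the middle windows it was 7.34, 6.30 and 6.99 points. Sparse tiles with no denser tile within 2 tiles on either side differed by 8.40 points. Within sparse tiles, dyads in repeats differed by 7.49 points and other dyads by 8.89 points. In repeats the richest windows had the higher level than the middle windows in all 5 libraries, by 3.94 ± 1.58 points (SD, n = 5, exact sign-flip p = 0.0625).

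The richest windows were unevenly spread. They made up 19.6% of the windows of chromosome 11, 17.3% of chromosome 17 and 16.3% of chromosome 19, but 4.11% of chromosome 14, 4.30% of chromosome 6 and 4.31% of chromosome 1. Mouse autosomes have their centromere at the start, and 1090 of the 2402 windows (45.4%) lay in the last 20% of their chromosome, where 20.4% of all windows lay. They were often neighbours, with 1315 adjacent pairs. In sparse tiles the 3 *Tet2*-/- libraries lay above both *Tet2*+/+ libraries in the richest windows of all 19 chromosomes, and the difference ranged from 7.78 points on chromosome 17 to 9.25 points on chromosome 2. Over all dyads it ranged from 6.01 points on chromosome 3 to 7.82 points on chromosome 2.

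Windows with more gene starts had smaller differences over all dyads, and in sparse tiles the differences lay closer together. The 390 richest windows with no protein-coding 5′ end had levels of 72.0% and 67.4% in *Tet2*+/+ and of 77.0%, 81.7% and 75.2% in *Tet2*-/- libraries, a difference of 8.32 points. The 286 windows with at least 6 such 5′ ends had levels of 54.7% and 50.7% against 57.6%, 60.6% and 57.2%, a difference of 5.77 points. In their sparse tiles the differences were 8.46 and 7.99 points. Split by dense tiles, the difference was 8.82 points over all dyads in the 404 windows with none and 6.13 points in the 177 windows with at least 6, and 8.74 and 8.81 points in sparse tiles. The 240 windows with most dyads had a level of 53.8% in *Tet2*+/+ and the 240 with fewest of 63.5%, but differed between genotypes by 6.95 and 6.98 points.

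Nearly all single windows shared the direction of the sum. At least 20 calls in every library were reached by 2400 of the 2402 richest windows, and the level of 2388 of them was higher in *Tet2*-/- (99.5%) and of 12 lower, close to the 97.03% of all windows that were higher. The median difference was 6.75 points, with 2.39 to 13.3 points between the 5th and 95th percentiles, against a median of 5.96 points in the middle windows and 6.35 points over all windows. In sparse tiles the median was 8.23 points, against 6.41 in the middle windows and 6.88 over all windows. The 3 *Tet2*-/- libraries lay above both *Tet2*+/+ libraries in 1995 richest windows (83.1%), against 47.8% of all 23977 windows with enough calls and 41.8% of the middle windows. They lay below both in 2 richest windows (0.0833%), against 0.329% of all windows. In sparse tiles they lay above in 2212 richest windows (92.2%), against 53% of all windows and 47% of the middle windows, and below in 0, against 0.3% of all windows. With 500 calls drawn per window and library, so that depth was equal, the share above was 67.6% over all dyads (43.7% of all windows, 38.8% of the middle windows) and 79.8% in sparse tiles (48.8% and 44.97%). The share below was then 0.167% over all dyads (0.379% of all windows) and 0% in sparse tiles (0.308% of all windows). All windows share the same libraries, so these counts are not independent. Over all dyads, *Tet2*-/- replicate 8 had a median level of 66.6% in the richest windows, against 63.1% in *Tet2*+/+ replicate 23. Over all windows these medians were 66.9% and 67.3%.

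**Figure D3:**
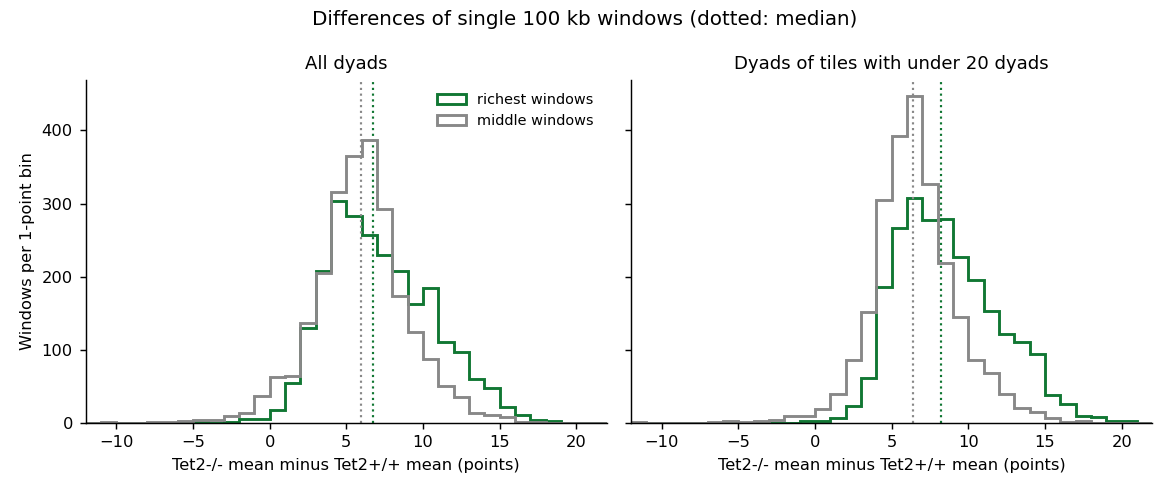
Number of windows (vertical axis, bins of 1 point) by the difference of group means, *Tet2*-/- minus *Tet2*+/+ (points, horizontal axis), for the richest (green) and middle windows (grey) with at least 20 calls in every library, over all dyads (left) and dyads of sparse tiles (right). Dotted lines are medians, 6.75 and 5.96 points on the left and 8.23 and 6.41 points on the right. The richest windows reach further to the right, and few windows lie below 0.

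A window-by-window test called more of the richest windows than of the rest, but the number called differed between fits and with single libraries left out. The richest windows hold more dyads than the middle windows and had more calls per dyad (3.51 to 6.50 against 2.79 to 4.79). The test thus rested on more calls per window there, and the part of this in the number called was not tested on its own. When both kinds of call were compared over all dyads with edgeR's quasi-likelihood test, 628 of 2400 richest windows (26.2%) were higher in *Tet2*-/- at a Benjamini-Hochberg adjusted p under 0.05, against 8.76% of all 23977 windows and 78 middle windows (3.25%). None of the richest windows was lower, against 0.0209% of all windows. The same test gave 1306 richest windows (54.4%) an unadjusted p under 0.05, against 24.5% of all windows and 19.1% of the middle windows. Of the 628, 621 had groups that did not overlap. With calls thinned to the total of the shallowest library, 608 richest windows were called (25.3%, against 8.47% of all windows). With 500 calls drawn per window and library, and 1 common in place of a trended dispersion, 10 (0.417%) were called against 0.312% of all windows, near the background. Without *Tet2*+/+ replicate 24, 1 richest window was called (0.00417% of all windows), and without *Tet2*-/- replicate 5 it was 84 (0.705% of all windows). Limma on log2 ratios called 61 higher (2.54%, against 1.89% of all windows) and 0 lower (against 0.0292%). Once the median of each library had been subtracted it called 0, with 0% of all windows higher and 0.0125% lower. The median log2 ratio over all windows was 0.44 higher in *Tet2*-/-, and 0.46 higher over the richest windows. In sparse tiles these medians were 0.51 and 0.66. There edgeR's quasi-likelihood test called 0 richest windows and 0% of all windows. It gave 1081 richest windows (45.04%) an unadjusted p under 0.05, against 19.9% of all windows and 13.5% of the middle windows. Without *Tet2*-/- replicate 7 it called 620 richest windows (25.8%), against 7.49% of all windows. Its likelihood ratio test called 193 richest windows higher (8.04%, against 2.85% of all windows) and 0 lower (against 0.0209%), limma 11 (0.179% of all windows higher), and limma with medians subtracted 48 higher and 0 lower, against 0.668% of all windows higher and 0.885% lower.

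The 5 windows with most dyads were of different kinds. The richest, chr8:123500001-123600000, held 4072 dyads and 38 dense tiles and the 5′ ends of *Gas8*, a subunit of the axonemal dynein regulatory complex, and *Dbndd1*. Despite its dense tiles it was highly methylated, at 71.9% and 64.8% in *Tet2*+/+ and 71.5%, 74.6% and 73.1% in *Tet2*-/- libraries. It was covered by 0.68 to 1.32 calls per dyad, far under the average, and its groups overlapped. The window ranked 2, chr6:114500001-114600000, held 2858 dyads but no dense tile and no protein-coding gene, and the nearest protein-coding 5′ end, that of *Atg7*, lay 43.1 kb away. Its levels were 58.0% and 48.7% against 71.4%, 68.1% and 66.5%, a difference of 15.4 points on 0.483 to 0.984 calls per dyad (edgeR adjusted p = 0.0863). Those ranked 3 and 4 lay close together on chromosome 10 and held many genes. The window chr10:80100001-80200000 with *Midn*, *Cbarp* and *Atp5d*, a subunit of the mitochondrial ATP synthase, had levels of 37.4% and 36.1% against 41.1%, 44.5% and 41.4% (edgeR adjusted p = 0.248). In chr10:80300001-80400000, with *Adamtsl5*, *Plk5* and *Reep6* and also *Mbd3*, which encodes a subunit of the NuRD complex, levels were 45.5% and 39.5% against 51.5%, 56.9% and 52.2%, a difference of 11.03 points (edgeR adjusted p = 0.0138). The edgeR adjusted p was 0.952 without *Tet2*+/+ replicate 24 and 0.148 without *Tet2*-/- replicate 5.

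The window ranked 5, chr6:52200001-52300000, held 8 *Hoxa* genes (*Hoxa3*, *Hoxa5*, *Hoxa6*, *Hoxa7*, *Hoxa9*, *Hoxa10*, *Hoxa11* and *Hoxa13*), transcription factors that pattern the embryo, of which *Hoxa9* is also known as a driver of AML. With 15 dense tiles it was the least methylated of the 5, at 30.5% and 26.1% in *Tet2*+/+ and 37.8%, 34.6% and 43.1% in *Tet2*-/- libraries. The difference was 10.2 points over all dyads (edgeR adjusted p = 0.0121) and 17.5 points in its 475 sparse dyads, 62.0% against 44.5%. The edgeR adjusted p was 0.931 without *Tet2*+/+ replicate 24, 0.171 without *Tet2*-/- replicate 5 and 0.123 without *Tet2*-/- replicate 8. Of its 35 sparse tiles that reached 20 calls throughout, 34 had the higher mean level in *Tet2*-/-. Its 15 dense tiles had a median difference of 5.80 points.

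The other *Hox* clusters were also among the richest windows. Of 39 *Hox* genes 38 had their 5′ end in a CpG-richest window (97.4%, against 30.1% of all protein-coding genes), in 8 windows. All 8 had the higher mean level in *Tet2*-/-, by 7.27 to 10.3 points, with a median of 8.63 points beside 6.75 points for all richest windows, and 7 had groups that did not overlap, near the 83.1% of all richest windows. Of the 8, 2 passed edgeR's test, near the 26.2% of all richest windows, namely the *Hoxa9* window and the *Hoxc* window chr15:102900001-103000000. The latter had the lowest levels, 19.7% and 18.1% in *Tet2*+/+ and 27.2%, 30.04% and 30.5% in *Tet2*-/- libraries (edgeR adjusted p = 0.00138, 0.529 without *Tet2*+/+ replicate 24 and 0.0563 without *Tet2*-/- replicate 5). The *Hoxd* window chr2:74600001-74700000, with *Evx2*, *Hoxd13* and *Hoxd12*, had levels of 30.2% and 28.2% against 37.3%, 36.0% and 39.3% (edgeR adjusted p = 0.0810). In their sparse dyads the 8 windows differed by 9.69 to 17.5 points.

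**Figure D4:**
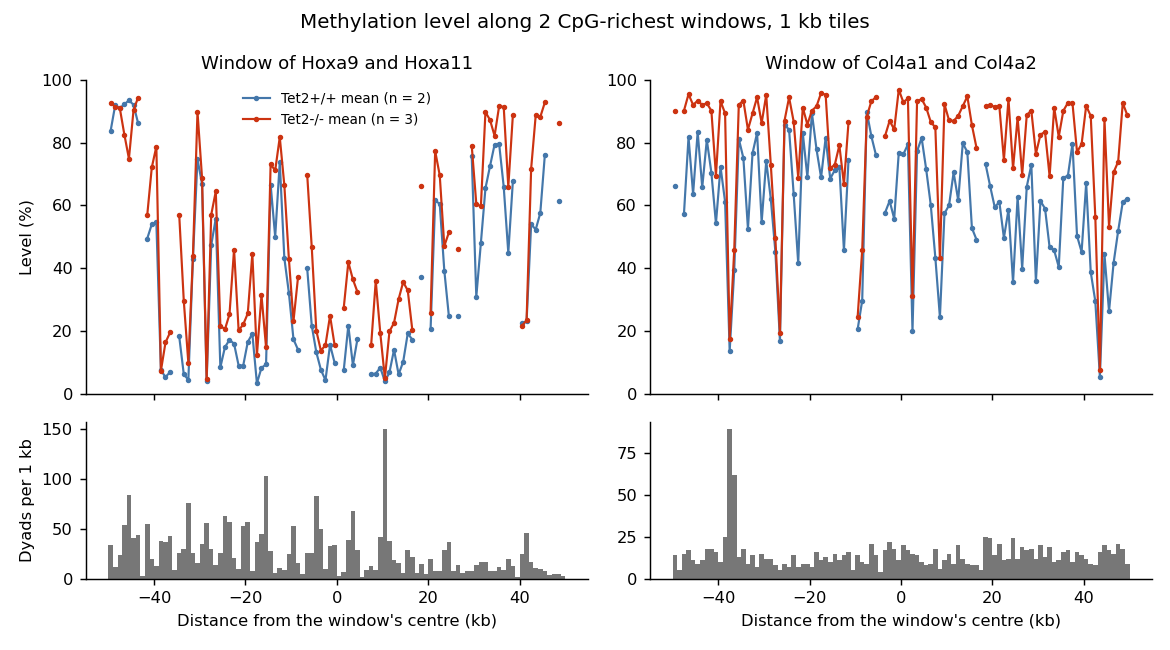
Mean methylation level of 1 kb tiles (%, upper panels, blue *Tet2*+/+, n = 2, and red *Tet2*-/-, n = 3) and dyads per tile (lower panels) by distance from the window's centre (kb), for the *Hoxa9* window (left) and the *Col4a1* window (right). Tiles under 20 calls in any library are left out. In the *Hoxa9* window most dense tiles have a low level in both groups. In the *Col4a1* window, which was chosen for its large difference, 81 of 82 sparse tiles have the higher mean in *Tet2*-/-.

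The 5 windows with the largest differences were taken from the called windows whose groups did not overlap, and their values are given as a description. The largest, 18.97 points, was in chr8:11300001-11400000, with the 5′ ends of *Col4a1* and *Col4a2*, which encode chains of type IV collagen of basement membranes. Its levels were 62.7% and 53.1% in *Tet2*+/+ and 74.2%, 79.3% and 77.2% in *Tet2*-/- libraries. In its 82 sparse tiles with enough calls the median level was 88.4% in *Tet2*-/- against 63.7%. The next, chr16:91800001-91900000, held no 5′ end but parts of *Itsn1*, an endocytic scaffold, and *Atp5o*, and had levels of 58.2% and 55.03% against 71.2%, 82.0% and 73.4%. The window ranked 3, chr5:111200001-111300000, lay within *Ttc28* and held no 5′ end and no dense tile. There the levels were 65.7% and 62.2% against 78.6%, 89.1% and 79.7%, and it was called under each omission of a library (edgeR adjusted p at most 0.00616). In the window ranked 4, chr15:101000001-101100000, with *Gm47841* and *Fignl2*, levels were 51.3% and 43.0% against 64.95%, 63.1% and 66.1%. The last, chr4:135500001-135600000, held *Grhl3*, an epithelial transcription factor, with levels of 56.2% and 44.8% against 65.6%, 73.2% and 64.9%. Without *Tet2*+/+ replicate 24 the differences of the 5 windows were 11.7 to 17.3 points, and only the *Ttc28* window was called.

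**Figure D5:**
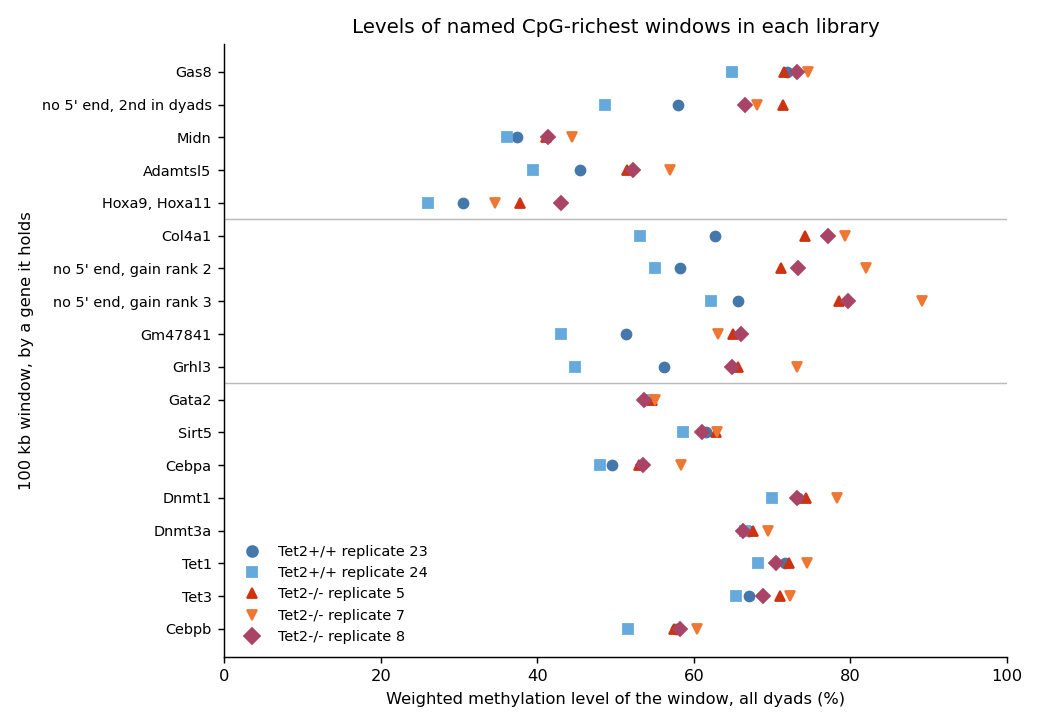
Methylation level of the window over all dyads (%, horizontal axis) in each of the 5 libraries (symbols) for named CpG-richest windows, listed by a gene each holds. From top to bottom the blocks are the 5 windows with most dyads, the 5 with the largest differences and 8 windows of preset genes. Blue symbols lie left of the red and orange symbols in the second block, and in the *Gata2* and *Dnmt3a* windows all symbols crowd within a few points.

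Genes of DNA methylation and of blood cell identity lay both inside and outside CpG-richest windows. Of 15 genes of the methylation machinery 9 had their 5′ end there, of 12 myeloid transcription factors 6, of 15 stem cell and leukemia genes 4 and of 12 housekeeping genes 8. The windows of the methylation machinery differed by 0.93 to 11.03 points with a median of 3.63 points, and those of the myeloid factors by 4.02 to 7.73 with a median of 5.98. Housekeeping genes had windows from -0.95 to 6.27 points with a median of 4.85, and all windows with a protein-coding 5′ end a median of 6.62 points. Calls were made in 1 of 9, 0 of 6 and 0 of 8 of these windows, against 8.76% of all windows and 21.3% of richest windows with a protein-coding 5′ end. Groups did not overlap, with *Tet2*-/- above, in 4 of 9, 5 of 6 and 6 of 8 windows, against 83.1% of all richest windows. For the stem cell and leukemia genes 2 of 3 windows were called, beside the same 8.76% and 21.3%. These were the windows of *Hoxa9* with *Hoxa10*, and of *Mn1*, a transcriptional coregulator overexpressed in some AML. Of 54 *Hist1* histone genes 32 lay in 3 richest windows. Of 79 *Rpl* and *Rps* genes of ribosomal proteins 43 lay in 40, with a median difference of 5.45 points and 5 windows called (12.5%). Of 385 *Zfp* zinc finger genes 88 lay in 66 windows with a median of 5.38 points and 6 windows called (9.09%). Both shares lay between the 8.76% of all windows and the 21.3% of richest windows with a protein-coding 5′ end. Large chemosensory families were nearly absent, with 5 of 1127 *Olfr* and 1 of 326 *Vmn* genes.

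Among 18 preset genes 9 had their 5′ end in a richest window, and 1 of the 9 windows was called, against 26.2% of all richest windows and 8.76% of all windows. The *Gata2* window, chr6:88100001-88200000, holds the gene of a transcription factor of blood stem cells. Its levels were 53.8% and 54.6% in *Tet2*+/+ and 54.7%, 54.998% and 53.6% in *Tet2*-/- libraries, a difference of 0.22 points (edgeR adjusted p = 0.957). Its sparse dyads differed by 2.52 points. The window's level averages 1563 dyads, so a change confined to a promoter need not show in it. The study reported a gain of methylation in a *Gata2* promoter, which was not compared here. The window of *Dnmt3a*, a de novo methyltransferase, had levels of 67.1% and 66.6% against 67.5%, 69.5% and 66.3% and differed by 0.93 points (edgeR adjusted p = 0.813). The windows of *Dnmt1*, the maintenance methyltransferase, and of the dioxygenases *Tet1* and *Tet3* differed by 3.63, 2.44 and 4.47 points. For *Cebpa*, chr7:35100001-35200000, levels were 49.5% and 48.0% against 53.0%, 58.3% and 53.5%, a difference of 6.18 points with no overlap (edgeR adjusted p = 0.273). The windows of *Cebpb*, a related factor, and of *Sirt5*, a mitochondrial deacylase, differed by 4.02 and 2.25 points. These small differences moved with single libraries. Without *Tet2*+/+ replicate 24 they were 0.943 points for *Cebpb*, 0.808 for *Sirt5*, 2.02 for *Dnmt1* and 0.672 for *Tet1*, and without *Tet2*-/- replicate 7 the *Dnmt3a* window differed by 0.0646 points. All preset windows but that of *Hoxa9* lay under the median of 6.75 points. *Fut8*, *Tet2*, *Dnmt3b*, *Spi1*, *Meis1*, *Runx1*, *Myc*, *Gfi1* and *Cebpe* had fewer dyads around their 5′ end and were not members, with *Cebpe* nearest, within the first 10.7% of windows.

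The windows with the lowest differences, chosen after their values were seen, had no call. In chr13:21800001-21900000, which holds 6 *Hist1* genes including *Hist1h2br*, levels were 71.3% and 75.5% in *Tet2*+/+ and 71.2%, 70.3% and 64.5% in *Tet2*-/- libraries, on 1.14 to 2.005 calls per dyad. The window of *Neurog2*, a neural transcription factor, had 57.8% and 56.0% against 55.3%, 53.1% and 54.1%, and was 1 of the 2 whose *Tet2*-/- libraries lay below both others. That of *Tspan5*, a tetraspanin, had 73.5% and 69.8% against 68.4%, 72.2% and 68.7%. In sparse dyads all 3 had the higher mean in *Tet2*-/-, by 1.44, 1.47 and 1.395 points. The 2 windows not tested, chr4:42100001-42200000 and chr4:42600001-42700000, held 1555 and 1522 dyads but only 7 to 13 and 2 to 6 calls in a library.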

How the data were processed

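Bisulfite-converted DNA from the sorted blasts of 5 mice was made into libraries with the Pico Methyl-Seq kit and sequenced on a NextSeq 500. Per the labels and their processing notes, the authors used FastQC 0.11.7, Trim Galore 0.4.3, Bismark 0.19.1 and Bowtie2 with GRCm38 (mm10). For each library and CpG cytosine, the authors deposited 2 raw counts, of methylated and of unmethylated reads, without normalization. No batch is named in the labels, and each library is a separate mouse. Per the study's methods the libraries were sequenced in pairs (duplexed), and which were paired was not given in the sources used here.

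Calls of both strands were summed for the 20383623 autosomal dyads, all of which match CG in the GRCm38 reference, and 73.3% had a call in all 5 libraries. Levels were pooled over windows of 100 kb or tiles of 1 kb. Gene positions came from GENCODE mouse release M21. Groups were compared with a two-sided exact permutation test (10 arrangements of 2 against 3 libraries), and richest with middle windows with an exact sign-flip test over 5 libraries. For windows in which each library had 20 calls or more, edgeR 4.0.16 (R 4.3.3) was fitted to both columns of counts, with a coefficient for each library, a trended dispersion and the quasi-likelihood test, with Benjamini-Hochberg adjustment over all windows. The spread of all windows was shared, so that a window's own spread had no weight. The fits with 500 calls used 1 common dispersion. Limma 3.58.1 was run on log2((methylated + 2)/(unmethylated + 2)), without a mean-variance trend, which was dropped after its results were seen because its p-values were implausibly small at the lowest levels. The quasi-likelihood and limma fits were tested on simulated data in which windows varied independently. No shift shared by all windows of a library was simulated, so the fits were not tested under such a shift. Python 3.11.15, numpy 2.4.6, scipy 1.17.1 and matplotlib 3.10.9 were used.

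Named windows were the 5 with most dyads, in each direction the 5 with the largest difference among called windows without overlap, and the windows of preset genes. A window was named by up to 3 protein-coding genes whose 5′ ends lay nearest its centre. The windows, gene lists and comparisons were chosen with earlier results of these data known. Alternatives were other window lengths and shares, other tile limits, thinning, common dyads, depth filters, other tests and leaving out each library. Sparse tiles far from denser tiles, sparse dyads by annotation and overlap at equal depth were added after the data were seen. The X chromosome was not used here. Intervals cover counting error only.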

Additional observations from a re-analysis of the deposited data

How the results depend on the processing

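No paired analysis was possible because the replicate numbers of the groups (23 and 24 against 5, 7 and 8) are not shared. Of 124 alternative values of the 8 level results, 121 kept their direction. Leaving out 1 library gave 4.93 to 9.34 points for the difference in the richest windows over all dyads and 6.64 to 10.8 points in sparse dyads, and the difference stayed above 0 in the middle windows too. No p could pass the threshold in these designs. Richest minus middle in sparse dyads (0.55 points) turned to -0.37 points with tiles under 30 dyads, to -0.66 points outside protein-coding genes and, over the omissions of a library, lay between -0.062 (without *Tet2*-/- replicate 8) and 0.96 points. Richest minus middle rose to 2.38 points with tiles under 10 dyads and to 1.59 points in sparse tiles far from denser tiles. The cause was not tested.

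The 628 calls over all dyads became 298 in the highest 5%, 1178 in the highest 20%, 61 with limma, 0 with library medians subtracted and 10 with 500 calls per window, and 1 to 562 without 1 library. The 0 calls in sparse dyads became 193 with the likelihood ratio test, 11 with limma, 48 with medians subtracted and up to 620 (0 to 620) without 1 library, the highest without *Tet2*-/- replicate 7. With medians subtracted, the log2 difference turned below 0 for the windows of *Gas8* (-0.11), *Midn* (-0.10), *Gata2* (-0.42), *Sirt5* (-0.30), *Cebpa* (-0.079), *Dnmt1* (-0.16), *Dnmt3a* (-0.37), *Tet1* (-0.26), *Tet3* (-0.14) and *Cebpb* (-0.20), since the shift shared by all windows is taken out. Without 1 library the *Gata2* window ranged from -0.16 to 0.64 points. The fit with 500 calls changed both depth and dispersion, which cannot be told apart there. Thinning to the shallowest library left 608 calls (25.3% of the richest windows, against 8.47% of all windows). It made depth equal between libraries but not between windows, so it cannot separate depth from dispersion in the fit with 500 calls. The highest 5% and 20% differ in number of windows, so their counts of calls cannot be compared directly with 628. As shares, 24.9% of 1199 and 24.5% of 4800 tested windows were called there, close to the 26.2% of 2400 reported.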
